A study of Mus musculus with 119 samples.

Results

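Satellite cells with low and with high surface CD34 were compared in geriatric mice. They are represented by 8 of the 119 samples of the series: 4 libraries of CD34Lo cells and 4 of CD34Hi cells, taken as 4 pairs by consecutive library numbers. All 8 came from wild-type (WT) animals of geriatric age, untreated, with skeletal muscle that was uninjured and at rest. The labels used here give no number of months, no strain and no sex, and they do not say whether a library came from 1 animal or from several. The other 8 of the 16 libraries in the experiment are the same gates from young WT mice and enter the scaling of the levels, the comparisons between ages and some alternative fits. Cells were sorted as negative for CD45, CD31 and Sca-1 and positive for α7-integrin and CD34, RNA was taken without culture, and cDNA was amplified from very small inputs with the SMART-Seq v4 kit. Every p-value below therefore measures the spread between these libraries, which could be partly technical.

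Satellite cells are the stem cells of skeletal muscle. They lie beside the muscle fibre in a resting, quiescent state held by Pax7, Notch signals and the matrix around them, and after injury they enter the cell cycle, switch on the myogenic regulators Myod1 and Myog and fuse into fibres. CD34 is a sialomucin on the surface of quiescent satellite cells, and its amount differs from cell to cell. The study concerns FoxO transcription factors, which act downstream of insulin and Akt signalling, and asks how the quiescent state held by cells with much CD34 fares up to geriatric age.

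Levels are given in CPM, a gene's read counts per M reads of its library's total after TMM scaling. Log2 fold changes are CD34Lo minus CD34Hi and come from an edgeR quasi-likelihood fit with the pair as a block, with the standard error (SE) of the fit. A gene passed the test at an adjusted p under 0.05 over all genes tested. Values in a row run from replicate 1 to replicate 4, so that values at the same place belong to the same pair.

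Total counts per geriatric library ran from 6.66 M to 12.2 M, and CD34Lo replicate 3 stood apart: its 50 most abundant genes held 17.2% of its reads, against 23.3% to 30.5% in the other geriatric libraries and 16.2% to 18.3% in the young ones. The sex of the animals, read from RNA, was not the same in all pairs. Xist, the RNA that silences an X chromosome in female cells, stood at 0.312, 0.647, 440.1 and 418 CPM in CD34Hi and at 0, 13.5, 376 and 55.9 CPM in CD34Lo. Ddx3y, a helicase gene on the Y chromosome, stood at 974, 1043, 0.699 and 171 CPM in CD34Hi and at 514, 545, 67.1 and 461 CPM in CD34Lo. Pairs 1 and 2 thus held mostly Y-linked RNA, CD34Hi replicate 3 held almost only Xist, and CD34Lo replicate 3 and both libraries of pair 4 held both kinds. Within pairs 3 and 4 the mix of these RNAs therefore also differed between the gates. The part of that mix in the gate differences of these pairs was not tested. In the young libraries Xist reached at most 2.76 CPM.

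**Figure D1:**
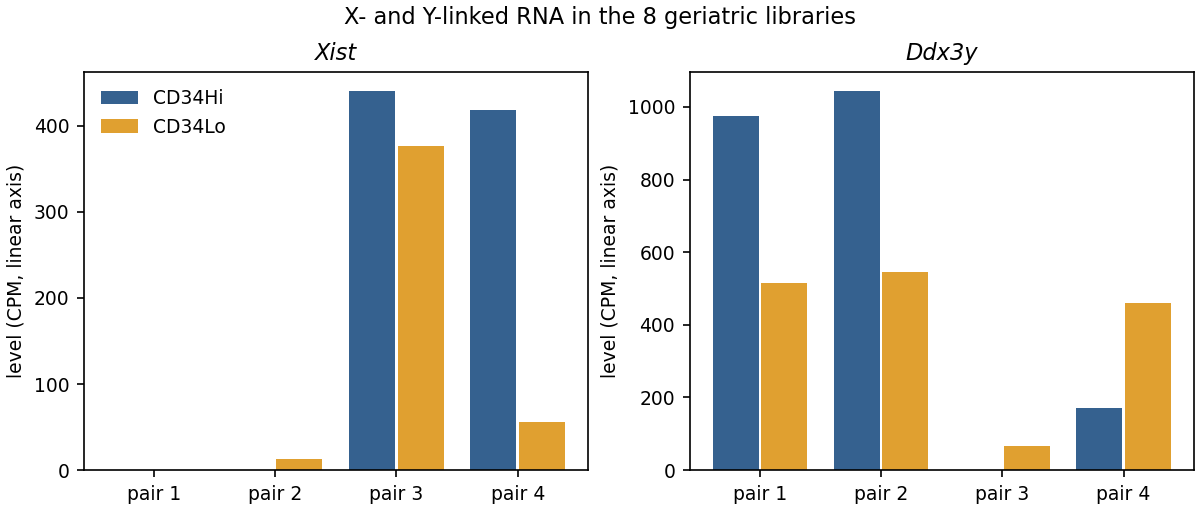
Levels in CPM (vertical, linear axis) of Xist and of Ddx3y in the 4 CD34Hi and 4 CD34Lo geriatric libraries, 1 bar a library, grouped by pair. Xist is near 0 in pair 1 and at 13.5 CPM or less in pair 2, and both RNAs are present in CD34Lo replicate 3 and in both libraries of pair 4.

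The cells carried the markers of their labelled type. Pax7, the transcription factor that defines satellite cells, stood at 19.8, 58.2, 17.5 and 26.1 CPM in CD34Hi and at 60.8, 51.9, 34 and 13.8 CPM in CD34Lo. Vcam1, an adhesion receptor of quiescent satellite cells, was at 591 to 2253 CPM in CD34Hi and at 786 to 1676 CPM in CD34Lo. Neither gene separated the gates, since each was higher in CD34Lo in 2 of the 4 pairs. Defining markers of endothelial, immune and red blood cells were low. The summed level of 5 endothelial markers was 0.647 to 14.7 CPM in CD34Hi and 0.248 to 13 CPM in CD34Lo. That of 6 immune markers was 5.50 to 21.2 and 8.36 to 14.1 CPM, and both haemoglobin genes were at 0 in all 8 libraries. Of 6 markers of fibro-adipogenic cells and fibroblasts, Dpp4 and Pi16 were at 0.323 CPM or less in all 8 libraries, and Pdgfra was at 0 except in CD34Lo replicates 1 (4.38 CPM) and 3 (0.344 CPM). Lum stood at 15.7 to 112 CPM in CD34Hi and at 5.17 to 62.7 CPM in CD34Lo. Ly6a, the gene of the Sca-1 antigen that the sort excluded, stood at 65.2 and 97.2 CPM in CD34Hi replicates 1 and 3, at 0 in the other CD34Hi libraries and at 5.47 CPM or less in CD34Lo. The sum of the 6, led by reads of Dcn, was 535 to 2025 CPM in CD34Hi and 130 to 1386 CPM in CD34Lo, and its part in the differences between gates was not tested.

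Cd34 itself was the check on the gates. Its RNA stood at 197, 365, 155 and 134 CPM in CD34Hi and at 126, 221, 125 and 53.5 CPM in CD34Lo. It was lower in CD34Lo in 4 of 4 pairs, although the ranges of the gates overlapped, and the log2 fold change was -0.73 (SE 0.25) with an adjusted p of 0.852. In young cells the same transcript was lower in 4 of 4 pairs too, by a log2 fold change of -0.83 (SE 0.20, adjusted p = 0.186 by edgeR).

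No gene passed the paired edgeR test between geriatric CD34Lo and CD34Hi cells (0 of 10768 tested, 0.0% called, lowest adjusted p = 0.852). At an unadjusted p under 0.05 there were 564 genes, 5.24% of those tested, with 302 higher (2.8%) and 262 lower (2.43%) in CD34Lo. Other tools ran from none to 97 genes: limma-voom gave 0 (lowest adjusted p = 0.0512), edgeR with no filter on low counts gave 28, and DESeq2 with the same pairs gave 97, of which 59 were higher and 38 lower. The count was 0 without any 1 of the 4 pairs, CD34Lo replicate 3 included. In the young libraries of the same experiment, the paired fit, added after the geriatric result was seen, called 51 of 11366 genes (0.449%), 33 higher (0.29%) and 18 lower (0.158%) in CD34Lo, and this count came to 19 without pair 1, 24 without pair 3 and 20 without pair 4. Without the block, which the young libraries did not show in every pair, 36 young genes were called (0.317%), 28 of them among the 51.

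The pairs of geriatric libraries varied more in their gate difference than the young pairs did. Among genes with a mean of at least 8 CPM, the median SD over the 4 pairs of the log2 ratio of CD34Lo to CD34Hi was 0.74 in geriatric cells (7761 genes) and 0.33 in young cells (7493 genes). The median size of the mean ratio was also larger in geriatric cells, 0.35 against 0.14 in young cells. Across genes, the ratios of any pair of geriatric pairs had correlations of -0.01 to 0.11, over genes that share libraries and depth.

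**Figure D2:**
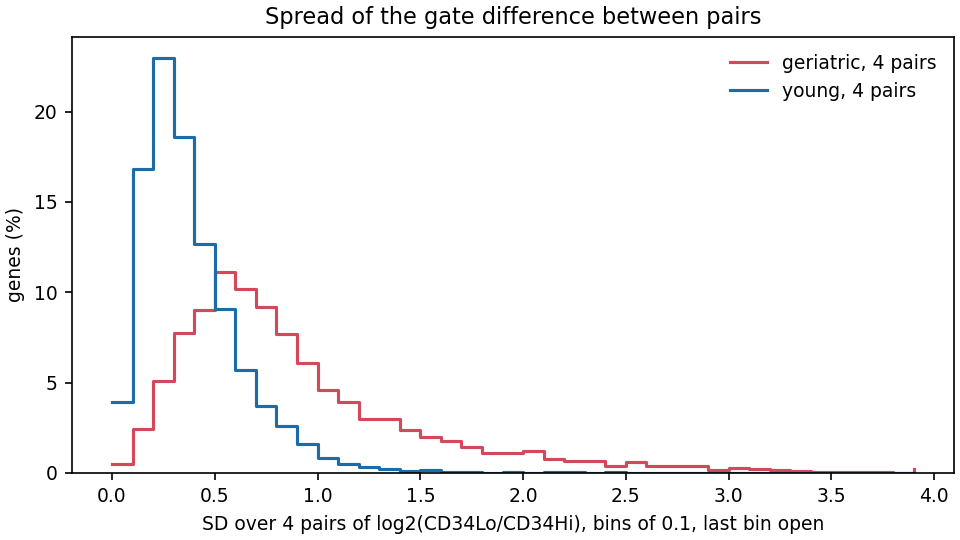
Share of genes in percent (vertical) by the SD over 4 pairs of the log2 ratio of CD34Lo to CD34Hi (horizontal, bins of 0.1), for genes with a mean of at least 8 CPM in geriatric and in young cells. The geriatric curve, with a median SD of 0.74, lies to the right of the young curve, with a median of 0.33.

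Although no gene passed, some differed in the same direction in every pair. Of the 10768 genes, 864 (8.02%) were higher in CD34Lo in all 4 pairs and 985 (9.15%) were lower in all 4. All CD34Lo libraries lay above all CD34Hi libraries for 141 genes (1.31%) and below them for 114 (1.06%). The 8 genes of smallest p in each direction among these, with a mean of at least 8 CPM, are described next, and each has an adjusted p of 0.852 in the paired edgeR fit. All 16 passed under DESeq2 (adjusted p 9.2e-06 to 0.021) and 10 of them under edgeR with no filter on low counts. Because they were picked by their p on these libraries, those calls are not independent support.

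Fos and Irf1 are transcription factors that cells switch on within minutes to hours of a stimulus, Fos as part of AP-1 and Irf1 as a target of STAT factors downstream of interferon and cytokine receptors. Their sequence just before the start of transcription is shown because both genes stood among the most regular differences, in 4 of 4 pairs. The stretches are the 250 bases before the RefSeq start on GRCm38.p6, both on the plus strand, at chr12:85473640-85473889 for Fos and chr11:53769764-53770013 for Irf1. Capitals mark TGACG (the core of sites for ATF and CREB factors) and TATAAA in Fos, and TTCNNNGAA (the core of sites for STAT factors) in Irf1, all searched on both strands.
Fos: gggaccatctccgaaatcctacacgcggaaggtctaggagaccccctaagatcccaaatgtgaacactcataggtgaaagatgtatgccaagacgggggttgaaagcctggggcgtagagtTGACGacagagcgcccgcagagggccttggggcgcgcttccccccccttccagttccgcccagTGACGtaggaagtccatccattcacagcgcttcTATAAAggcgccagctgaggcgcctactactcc
Irf1: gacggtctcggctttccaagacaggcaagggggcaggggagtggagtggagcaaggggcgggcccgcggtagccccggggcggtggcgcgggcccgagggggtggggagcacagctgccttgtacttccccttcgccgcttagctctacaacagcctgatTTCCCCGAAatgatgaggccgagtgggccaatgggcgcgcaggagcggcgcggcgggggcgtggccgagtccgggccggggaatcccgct
The Fos stretch held TGACG 2 times and TATAAA 1 time, and the Irf1 stretch held TTCNNNGAA 1 time. Of 32851 RefSeq promoter stretches of the same length, 17.8% held TGACG, 12.4% TATAAA and 7.02% TTCNNNGAA. The motifs were chosen after the values were seen, and a match describes the letters only.

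Fos (chromosome 12, 85473890 to 85477273, mm10) stood at 316, 267, 367 and 130 CPM in CD34Hi and at 1414, 873, 1254 and 187 CPM in CD34Lo. Pairs 1 to 3 differed widely and pair 4 by little, so that CD34Lo replicate 4 fell within the CD34Hi range. The log2 fold change was 1.57 (SE 0.31). Irf1 (chromosome 11, 53770014 to 53778374) stood at 41.7, 56.4, 10.1 and 6.16 CPM in CD34Hi and at 124, 116, 56.6 and 23.2 CPM in CD34Lo, a log2 fold change of 1.76 (SE 0.34). Its level followed the pair as well as the gate, with pairs 1 and 2 above pairs 3 and 4 in both gates. Socs3, a feedback inhibitor of cytokine receptors that is itself a STAT target, stood at 24.7, 18.1, 8.85 and 4.17 CPM in CD34Hi and at 73.4, 50.1, 59.0 and 10.7 CPM in CD34Lo. It was higher in CD34Lo within each pair, with a log2 fold change of 1.80 (SE 0.43).

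Baiap2, an adaptor that links small GTPases to the actin skeleton, had gates that did not overlap. It stood at 12.5, 20.2, 16.1 and 11 CPM in CD34Hi and at 40.5, 61.8, 111 and 50.2 CPM in CD34Lo. The lowest CD34Lo library lay above the highest CD34Hi library, and the log2 fold change was 2.09 (SE 0.37). Capn6, an atypical calpain without protease activity, also had gates that did not overlap, at 8.42, 2.26, 5.36 and 0.199 CPM in CD34Hi and at 44.3, 11.4, 47.7 and 15.2 CPM in CD34Lo (log2 fold change 3.29, SE 0.77). The remaining higher genes were Nfil3, a bZIP repressor (1.10, SE 0.23), Tuba1a, an alpha-tubulin (1.13, SE 0.26), and Ppp1r15a, the GADD34 subunit that reverses eIF2α phosphorylation under stress (0.96, SE 0.23), all on the log2 scale and all with overlapping gates.

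Akap12, a scaffold for protein kinase A, had the smallest p of all the lower genes. It stood at 175, 116, 37.7 and 34 CPM in CD34Hi and at 34.7, 28.5, 10.4 and 11.6 CPM in CD34Lo, a log2 fold change of -1.92 (SE 0.30). It was lower in 4 of 4 pairs, yet CD34Lo replicate 1 slightly exceeded CD34Hi replicate 4, since pairs 1 and 2 were high in both gates. Neu2, a cytosolic sialidase, stood at 381, 871, 88.4 and 149 CPM in CD34Hi and at 170, 420, 26.1 and 44.5 CPM in CD34Lo (log2 fold change -1.41, SE 0.24). Ccl2, a chemokine that recruits monocytes, stood at 4176, 840.5, 366 and 173 CPM in CD34Hi and at 1691, 330.5, 69.6 and 76.3 CPM in CD34Lo (log2 fold change -1.53, SE 0.28). For both genes the level differed more between pairs than between gates, and pair 1 held far more Ccl2 than the others.

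Dio2, the deiodinase that makes active thyroid hormone and is known from quiescent satellite cells, had gates that did not overlap. It stood at 443, 163, 271 and 197 CPM in CD34Hi and at 108, 124, 74.2 and 38.7 CPM in CD34Lo (log2 fold change -1.66, SE 0.34). Naf1, a factor for assembling H/ACA ribonucleoproteins, did not overlap either, at 139, 119, 75.8 and 92.7 CPM against 67.4, 36.3, 30 and 45.9 CPM (-1.26, SE 0.27). The others were Cyb5a, cytochrome b5 (-1.46, SE 0.31), Srgn, a secretory granule proteoglycan (-1.46, SE 0.32), and Idi1, an enzyme of isoprenoid synthesis (-0.94, SE 0.23).

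**Figure D3:**
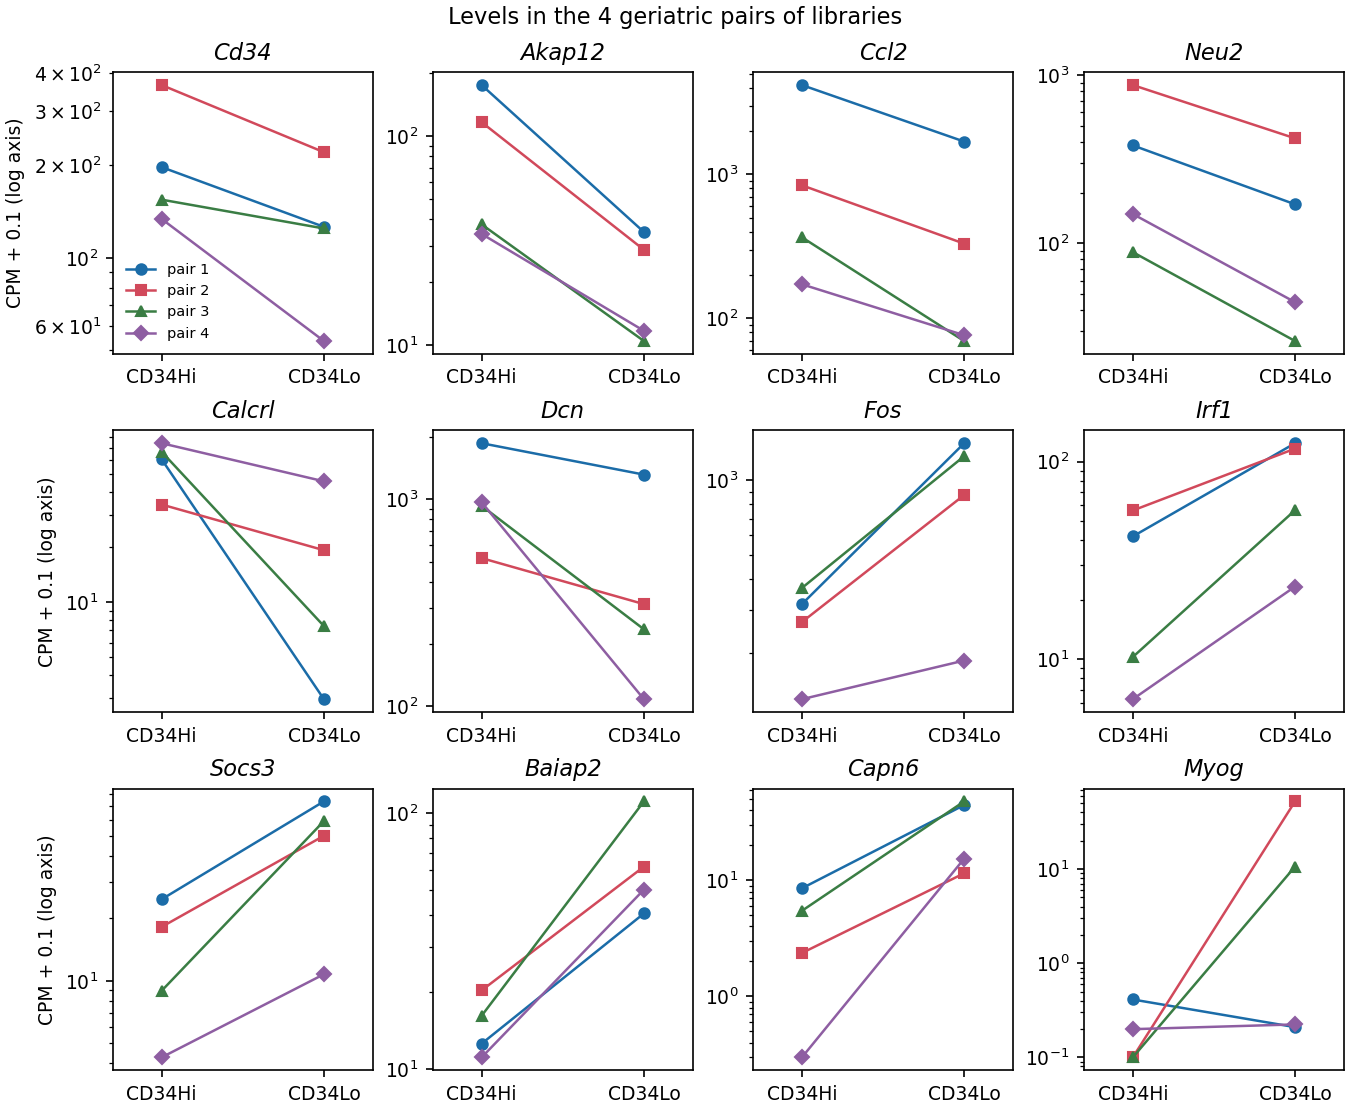
Levels of 12 named genes (vertical, CPM plus 0.1 on a log axis) in CD34Hi and CD34Lo, with 1 line and marker for each of the 4 geriatric pairs. Lines run down in all pairs for Cd34, Akap12, Ccl2, Neu2, Calcrl and Dcn and up in all pairs for Fos, Irf1, Socs3, Baiap2 and Capn6, whereas Myog is high only in CD34Lo replicates 2 and 3.

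Immediate early and dissociation stress genes are those that cells induce within minutes of isolation or of a stimulus. All 56 listed genes were tested, and none passed. At an unadjusted p under 0.05, 13 were higher in CD34Lo and 1, Ccl2, was lower, 25.0% of the list against 5.24% of all genes. In all 4 pairs 14 (25.0%) were higher and 5 (8.93%) were lower, against 8.02% and 9.15% of all genes. The median log2 fold change was 0.20, with medians of 0.12, 0.15, 0.33 and 0.42 in the 4 pairs, beside 0.02 over all genes. In young cells the median of the list was -0.10.

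Within that list, several roles stood side by side, and 37 of the 56 genes had a positive log2 fold change. Fosl2 (-0.60, SE 0.29), Btg1, Mcl1, Ctgf and Ccl2 were lower in all 4 pairs. Fosb (0.14, SE 0.26) and Egr1 (0.05, SE 0.26) hardly differed. The genes named next are among those with a positive log2 fold change. The transcription factor Jun, the AP-1 partner of Fos, had a log2 fold change of 0.66 (SE 0.25), the orphan receptor Nr4a1 of 1.02 (SE 0.31) and the zinc finger factor Klf6 of 0.69 (SE 0.25). Atf3, another bZIP factor of the stress response, was at 105, 88.3, 22.1 and 56.5 CPM in CD34Hi and at 224, 255, 75.4 and 40.5 CPM in CD34Lo, higher in 3 of 4 pairs (1.02, SE 0.38). Feedback phosphatases of MAP kinases followed: Dusp1 stood at 224, 417, 451 and 261 CPM in CD34Hi and at 546, 560, 1420 and 465 CPM in CD34Lo, with no overlap (1.07, SE 0.27). The small heat shock protein gene Hspb1 had 184, 284, 665 and 1561 CPM against 608, 567, 927 and 3708 CPM, higher within every pair and with a wide spread between pairs (1.13, SE 0.27). Gadd45b, which responds to growth arrest and DNA damage, was higher in all 4 pairs (0.88, SE 0.23). The summed level of the list did not show the same direction: it was 22824 to 61540 CPM in CD34Hi and 27219 to 48785 CPM in CD34Lo, and only pair 4 had the higher sum in CD34Lo.

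Myog and Actc1, genes of early muscle differentiation, had the smallest adjusted p of the gate comparison in young cells (6.09e-07 each by edgeR), and in geriatric cells they were seen in some libraries only. Myog, the factor that starts differentiation, was at 0.0690 CPM or less in every young CD34Hi library and at 47.3, 161, 41.3 and 198 CPM in young CD34Lo. In geriatric CD34Lo it stood at 0.109, 52.3, 10.5 and 0.124 CPM, and geriatric CD34Hi held 0.312 CPM or less. Only CD34Lo replicates 2 and 3 therefore carried it, and Myog fell below the filter on low counts of the geriatric fit, so it was not tested there. Actc1, the cardiac actin of early myocytes, followed at 0, 39.7, 5.85 and 0 CPM in geriatric CD34Lo. Tmem8c, the fusion protein myomaker, stood at 0, 63.8, 11.9 and 16.1 CPM there and at 0.162 CPM or less in CD34Hi. Across age, the difference of the gate effects for Myog had an edgeR interaction of -5.47 (SE 2.80, adjusted p = 0.827).

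Of the 41 measured genes of the commitment list, 22 were tested and none had an unadjusted p under 0.05. Myf6, a myogenic regulator of the later programme, stood at 7.02, 1.94, 5.12 and 4.37 CPM in CD34Hi and at 9.96, 7.96, 6.27 and 20.6 CPM in CD34Lo, higher in each pair (1.28, SE 0.83). Myod1 was at 168, 432, 832 and 510 CPM in CD34Hi and at 294, 280, 891 and 534 CPM in CD34Lo, with a log2 fold change of 0.11 (SE 0.27). Among 38 mature myofibre genes, 19 were tested and 2 (10.5% against 5.24% of all genes) had an unadjusted p under 0.05. Both were higher in 4 of 4 pairs: Tpm2, a tropomyosin (1.82, SE 0.59), and Atp2a1, the calcium pump of fast fibres (2.59, SE 0.98). Bub1b, a spindle checkpoint kinase, was the only one of 23 tested cell cycle genes below that unadjusted p (4.35% against 5.24% of all genes). Its level was 0, 9.05, 0.699 and 0.0993 CPM in CD34Hi and 5.14, 21.0, 8.68 and 2.23 CPM in CD34Lo.

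Quiescence-associated genes had no single direction. Of 40 tested, 5 were higher and 2 lower at an unadjusted p under 0.05 (17.5% against 5.24% of all genes). In all 4 pairs 8 (20% against 8.02% of all genes) were higher and 2 (5% against 9.15%) lower. The median log2 fold change was 0.18. The higher ones at that p were Fos, the collagen gene Col5a1, the chemokine receptor gene Cxcr4, the cyclin-dependent kinase inhibitor gene Cdkn1c and the G protein regulator gene Rgs16. Cxcr4 stood at 11.7, 33.5, 30.3 and 22.4 CPM in CD34Hi and at 62.3, 58.3, 52.9 and 46.6 CPM in CD34Lo, with no overlap (1.27, SE 0.40). The lower ones were Cd34 and Tek, the angiopoietin receptor, which stood at 185, 179, 66.3 and 103 CPM in CD34Hi and at 66.5, 69.9, 45.5 and 63.3 CPM in CD34Lo (-1.0, SE 0.27). Calcr, the calcitonin receptor that holds satellite cells in quiescence, had no regular direction, at 228, 341, 120 and 54.6 CPM against 92.1, 135, 95.5 and 148 CPM, lower in 3 of 4 pairs.

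Of the FoxO factors, Foxo1 was measured in every library. It stood at 37.4, 38.1, 24.9 and 25.0 CPM in CD34Hi and at 70.4, 44.9, 53.2 and 34.1 CPM in CD34Lo, higher in CD34Lo in 4 of 4 pairs with a log2 fold change of 0.69 (SE 0.34, adjusted p = 0.852 by edgeR). In young cells its log2 fold change was -0.10 (SE 0.18), and the interaction of age with gate was 0.78 (SE 0.36, adjusted p = 0.827 by edgeR). Foxo3 was detected in only 1 CD34Hi library, at 1.98 CPM in replicate 3, and at 4.60, 0.705, 2.27 and 0 CPM in CD34Lo. Foxo4 ran from 0.156 to 7.60 CPM in CD34Hi and from 0.207 to 4.16 CPM in CD34Lo. Of 44 tested FoxO factors and targets, 3 were higher and 0 lower at an unadjusted p under 0.05, a share of 6.82% near the 5.24% of all genes. In all 4 pairs 6 (13.6% against 8.02%) were higher and 0 (0.0% against 9.15%) lower, and the median was 0.20. The 3 were Txnip, a thioredoxin inhibitor (0.83, SE 0.33), Tsc22d3, the glucocorticoid-induced leucine zipper gene (2.07, SE 0.90), and Pik3ip1, an inhibitor of PI3-kinase (3.96, SE 1.73). Txnip and Tsc22d3 were each higher in 3 of 4 pairs and lower in pair 4. Pik3ip1 was higher in all 4 but near the floor in several libraries, at 0, 0.162, 7.22 and 0 CPM in CD34Hi and at 0.109, 9.87, 10.3 and 1.86 CPM in CD34Lo.

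Along the IGF, PI3K and Akt pathway upstream of FoxO, 36 genes were tested. Tsc1, whose product with Tsc2 restrains mTORC1, stood at 2.34, 7.60, 5.01 and 29.6 CPM in CD34Hi and at 20.8, 11.8, 41.6 and 68.2 CPM in CD34Lo (2.01, SE 0.61). Igfbp4, an IGF-binding protein gene, stood at 182, 131, 113 and 70.2 CPM in CD34Hi and at 117, 58.4, 67.5 and 11.4 CPM in CD34Lo (-1.24, SE 0.36). Both had the same direction in 4 of 4 pairs, and they were the only ones of the 36 with an unadjusted p under 0.05, a share of 5.56% near the 5.24% of all genes. Of 19 tested Notch pathway genes none reached that p: Rbpj, the DNA-binding partner of Notch, was lower in all 4 pairs (-0.43, SE 0.22), and the co-activator gene Maml2 and the ubiquitin ligase gene Dtx3 were higher in all 4 (1.39, SE 0.67, and 0.97, SE 0.50).

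Chemokine and interferon genes differed more between pairs than between gates. The sum of 58 interferon and antigen presentation genes was 30122, 12947, 16860 and 9489 CPM in CD34Hi and 26835, 13368, 9694 and 10019 CPM in CD34Lo, while young libraries lay at 3976 to 4578 CPM. Pair 1 was the highest in both gates. At an unadjusted p under 0.05, 2 of 50 tested genes were higher (Irf1 and the interferon-induced GTPase gene Igtp). At that p 4 were lower (Gbp5, Gbp2, Isg15 and Psmb10). Both directions together made up 12% of the list against 5.24% of all genes, and the median was -0.16. Gbp5, a guanylate-binding protein gene, stood at 59.4, 20.7, 4.54 and 0.199 CPM in CD34Hi and at 9.08, 4.53, 0.0689 and 0 CPM in CD34Lo (-3.26, SE 0.91). Igtp went the other way, at 69.7, 119, 56.0 and 1.59 CPM in CD34Hi and at 297, 203, 62.9 and 23.2 CPM in CD34Lo (1.61, SE 0.53). The chemokine gene Ccl8 stood at 357, 50.3, 14.3 and 5.76 CPM in CD34Hi and at 145, 12.7, 0 and 0 CPM in CD34Lo (-3.13, SE 0.93). Among 30 tested senescence and secretory genes 1 was higher (Plaur) and 4 lower (Ccl2, Ccl8, Ccl7 and Igfbp4) at that p, 16.7% against 5.24% of all genes.

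Matrix and adhesion genes had no single direction, and none passed. Of 46 tested, 5 were higher and 1 lower at an unadjusted p under 0.05 (13% against 5.24% of all genes). In all 4 pairs 7 (15.2% against 8.02%) were higher and 2 (4.35% against 9.15%) lower, and 26 of the 46 had a positive log2 fold change, with a median of 0.10. Col5a1, a fibrillar collagen chain reported from quiescent cells, stood at 21.8, 65.2, 41.8 and 53.9 CPM in CD34Hi and at 78.0, 82.4, 143 and 94.2 CPM in CD34Lo, with no overlap (1.21, SE 0.34). Tnc, the matrix protein tenascin C, was also higher in each pair (1.41, SE 0.44). Dcn, a small proteoglycan that is most abundant in fibroblasts, was the lower one, at 1861, 519, 929 and 965 CPM in CD34Hi and at 1313, 312, 236 and 108 CPM in CD34Lo (-1.55, SE 0.44). Thy1, another gene of the fibroblast list, was at 15.5 to 26.3 CPM in CD34Hi and at 2.20 to 10.7 CPM in CD34Lo, with no overlap (-2.01, SE 0.64). Of the 24 fibroblast genes tested, 2 were higher (Bgn and Gsn) and 2 lower at that p (16.7% against 5.24% of all genes), so the list had no single direction. In bulk libraries fewer cells of a type and less RNA per cell cannot be told apart.

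Genes of oxidative phosphorylation and of the ribosome stood lower in CD34Lo, most of all in pair 3. Of 74 tested oxidative phosphorylation genes, 13 were lower and 0 higher at an unadjusted p under 0.05 (17.6% against 5.24% of all genes). In all 4 pairs 36 (48.6% against 9.15% of all genes) were lower. The median log2 fold change was -0.47, but the pair medians were -0.30, -0.09, -1.43 and -0.21, and without pair 3 the median was -0.16. Ndufa5, a subunit of complex I, stood at 348, 211, 175 and 267 CPM in CD34Hi and at 186, 158, 46.7 and 213 CPM in CD34Lo (-0.86, SE 0.30). Of 78 tested cytosolic ribosomal protein genes, 4 were lower and 0 higher at that p, a share of 5.13% near the 5.24% of all genes. In all 4 pairs 37 (47.4% against 9.15% of all genes) were lower. The pair medians were -0.21, 0.01, -1.54 and -0.40, with a median of -0.51, or -0.17 without pair 3. In pair 2 the ribosomal sum was 86819 CPM in CD34Hi and 90205 CPM in CD34Lo. These lists thus moved with CD34Lo replicate 3, the library with the least of its reads in few genes, where the ribosomal genes summed to 48636 CPM against 90205 to 139357 CPM in the other CD34Lo libraries. The part of that library's composition in the lists was not tested. In young cells the medians were 0.15 and -0.03.

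**Figure D4:**
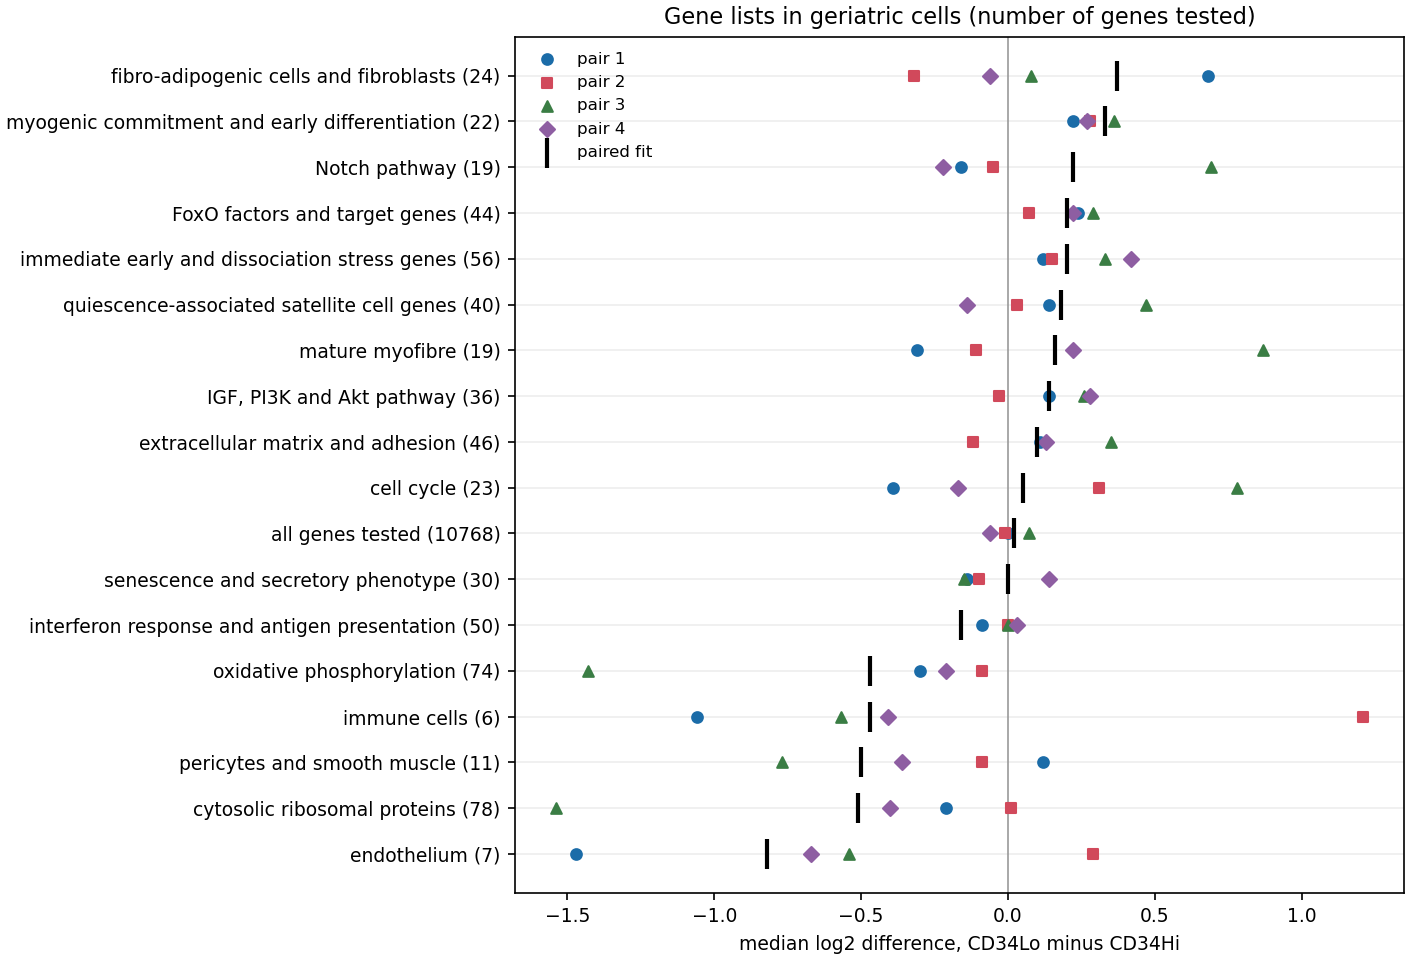
Median log2 difference of CD34Lo and CD34Hi (horizontal) for each gene list shown, as coloured markers for the 4 geriatric pairs and a black bar for the paired fit, with the number of genes tested in brackets. The medians of oxidative phosphorylation (-1.43) and ribosomal proteins (-1.54) lie far to the left in pair 3, and those of the myogenic commitment list lie between 0.22 and 0.36 in all pairs.

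Genes called between the gates in young cells give a comparison that shares no library with the geriatric one. Of the 33 genes higher in young CD34Lo, 21 were tested in geriatric cells and 12 fell below the filter there. Of the 21 tested, 7 (33.3% against 8.02% of all genes) were higher and 0 lower in all 4 geriatric pairs. Over all 33, 8 were higher and 0 lower in all 4 geriatric pairs, and the median of the mean pair ratio was 0.94 on the log2 scale. Of the 18 genes lower in young CD34Lo, all 18 were tested, 7 (38.9% against 9.15% of all genes) were lower and 0 higher in all 4 geriatric pairs, and the median log2 fold change was -0.45. From the young fit without pairs, 4 of 27 higher genes were higher in all 4 geriatric pairs. Among the 16 of these that were tested it was 3 (18.8% against 8.02% of all genes). Of the 9 lower genes, 4 (44.4% against 9.15%) were lower in all 4. Of the 51 genes of the paired young fit, none of the 21 higher and 18 lower ones that were tested passed in geriatric cells. The other 12 were not tested there.

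Some of these genes had gate differences of like size at both ages. Calcrl, the receptor for adrenomedullin and related peptides, stood at 60.4, 34.1, 66.4 and 74.0 CPM in geriatric CD34Hi and at 2.84, 19.1, 7.30 and 45.7 CPM in CD34Lo. Its log2 fold change was -2.20 (SE 0.69) in geriatric and -2.03 (SE 0.29, adjusted p = 0.0195 by edgeR) in young cells. Cyb5a had -1.46 against -1.33 (SE 0.14), Nppc, the precursor of C-type natriuretic peptide, -0.97 (SE 0.24) against -1.14 (SE 0.15), and Thbs2, a matrix thrombospondin, -1.0 (SE 0.28) against -1.04 (SE 0.16). Cd24a, a surface sialoglycoprotein gene, stood at 16.1, 4.53, 14.7 and 19.8 CPM in geriatric CD34Hi and at 48.5, 68.0, 59.0 and 43.9 CPM in CD34Lo, with 2.13 (SE 0.52) against 1.40 (SE 0.18). For these 5 genes the interaction of age with gate did not pass, and an interaction that misses the threshold does not show that the effects are equal.

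**Figure D5:**
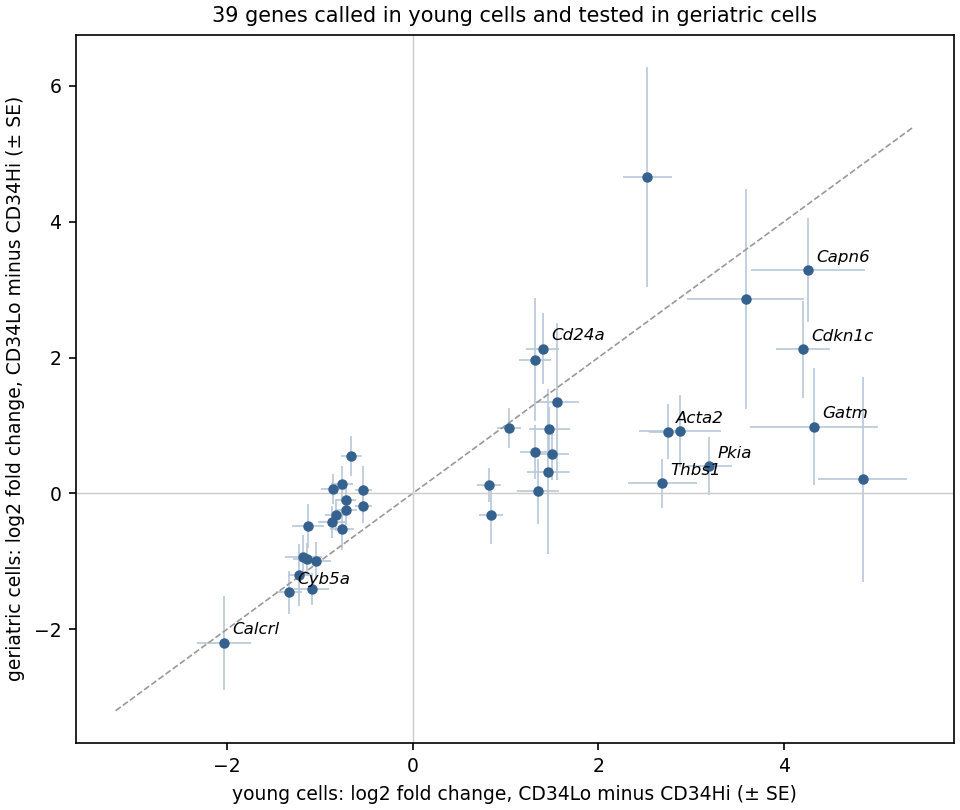
Log2 fold change of CD34Lo minus CD34Hi in geriatric cells (vertical) against that in young cells (horizontal) for the 39 genes called in young cells and tested in geriatric cells, with bars of 1 SE and a dashed line of equal values. Calcrl and Cyb5a lie near the line, while Pkia, Thbs1 and Gatm lie well below it.

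Pkia and Thbs1 had a large gate difference in young cells and a small one in geriatric cells. Pkia, an inhibitor of protein kinase A, stood at 33.9, 20.4, 23.8 and 10.8 CPM in geriatric CD34Hi and at 55.5, 37.7, 19.4 and 12.4 CPM in geriatric CD34Lo. In young cells it stood at 4.08, 5.22, 2.69 and 6.14 CPM in CD34Hi and at 25.3, 45.4, 39.1 and 52.9 CPM in CD34Lo. The geriatric CD34Hi libraries thus all lay above the young CD34Hi ones, and the log2 fold change was 0.40 (SE 0.43) in geriatric and 3.19 (SE 0.25) in young cells. The matrix gene Thbs1 gave the same picture: 31.6 to 212 CPM in geriatric CD34Hi against 0.552 to 3.86 CPM in young CD34Hi, with gate differences of 0.15 (SE 0.36) and 2.69 (SE 0.37). Cdkn1c, the inhibitor p57, had a log2 fold change of 2.12 (SE 0.72) in geriatric and 4.21 (SE 0.29) in young cells. The young test chose these genes, which favours large young values.

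The difference of the gate effects between ages was tested by the interaction over all 16 libraries. None of 12163 genes passed in edgeR (0.0%, lowest adjusted p = 0.632), with 692 (5.69%) at an unadjusted p under 0.05, and DESeq2 called 36. Among genes with a mean of at least 8 CPM, Pkia had the smallest p, with an interaction of -2.80 (SE 0.47, adjusted p = 0.632), followed in the same direction by Thbs1 (-2.54, SE 0.51) and Ifit1, an interferon-induced gene (-6.34, SE 1.24). In the other direction stood Tuba4a, an alpha-tubulin (1.19, SE 0.20), Poldip2, a polymerase-interacting protein gene (1.71, SE 0.38), and Agk, the mitochondrial acylglycerol kinase gene (1.81, SE 0.41). Tuba4a was at 126, 123, 94.9 and 63.9 CPM in geriatric CD34Hi and at 223, 219, 186 and 121 CPM in CD34Lo, higher in 4 of 4 geriatric pairs and in 0 of 4 young pairs. Poldip2 was at 3.18 to 9.20 CPM in geriatric CD34Hi, 11.4 to 29.8 CPM in geriatric CD34Lo and 41.8 to 63.5 CPM in the young libraries, so that the 3 ranges did not overlap.

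Slc25a47, a mitochondrial carrier gene best known from liver, had no count in any geriatric CD34Hi library and stood at 1.97, 8.06, 4.41 and 4.46 CPM in CD34Lo. Its mean in CD34Lo was 49.2-fold above a floor of 3 counts over the CD34Hi group, a ratio that leaves out the spread between libraries. It passed neither the paired edgeR test (adjusted p = 0.852) nor the interaction of age with gate (adjusted p = 0.827 by edgeR, at a mean below the 8 CPM asked of the genes named there), and it was the 1 gene that passed in the fit of all 16 libraries without pairs. Young libraries held it in both gates, at 3.31 to 4.71 CPM in CD34Hi and 1.98 to 6.84 CPM in CD34Lo.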

How the data were processed

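RNA-seq libraries of sorted satellite cells were compared from deposited raw counts per gene symbol (24421 symbols), not normalised by the authors. The submitters' processing notes name TopHat2 2.1.1, HTSeq, Partek 7.0, bcl2fastq 2.17.1 and Trim Galore with mm10; no source used here gives counting options or strand. Genes were kept by filterByExpr (minimum count 10, total 15), scaled by TMM and tested with edgeR 4.0.16 (R 4.3.3), with the pair as a block and Benjamini-Hochberg adjustment over all genes. Consecutive library numbers were taken as pairs, and the labels do not say whether a pair shares animals. In geriatric cells, deviations from the gate means correlated at 0.189 to 0.232 within a pair and at -0.253 to 0.156 between pairs. Ddx3y stood at 0.699 CPM in CD34Hi and 67.1 CPM in CD34Lo of pair 3, and Xist at 418 and 55.9 CPM in pair 4. CPM use TMM factors of all 16 libraries, and pair ratios add 0.5 CPM. Geriatric libraries of 1 gate differed beyond sampling noise. Alternatives were DESeq2 1.42.0, limma 3.58.1, other filters, scaling and libraries. The fits were tested on simulated data. Named genes are those of smallest p with 1 direction in 4 pairs (8 a direction), a panel, 3 a list and 3 a direction of the interaction; others were picked after their values were seen. Members and the 20 lists were chosen with earlier results of these data known. Some items are not reported here. Positions are from GENCODE and promoters from RefSeq.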

Additional observations from a re-analysis of the deposited data

Results flagged for a closer look

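Among the named genes, 174 groups of 4 geriatric libraries of 1 gate were checked for a library that lies far from the others by Dixon's criterion, and 21 (12.1%) held one. Chance flags about 1 in 20 such groups, and the flags were spread over all 8 libraries, with 1 to 4 in each.

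In pair 1, 5 genes had libraries that lay far above the others. Ccl2 stood at 4176 CPM in CD34Hi replicate 1 (others up to 840.5) and at 1691 CPM in CD34Lo replicate 1 (others up to 330.5). Ccl8 stood at 357 CPM in CD34Hi replicate 1 and at 145 CPM in CD34Lo replicate 1. Cyb5a (1435 CPM) and Thbs1 (212 CPM) stood apart in CD34Hi replicate 1, and Dcn (1313 CPM) in CD34Lo replicate 1.

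In pair 2, Actc1 stood at 39.7 CPM in CD34Lo replicate 2. CD34Hi replicate 2 stood apart in Bub1b (9.05 CPM) and the actin-binding gene Tagln (325 CPM).

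In pair 3, CD34Lo replicate 3 stood apart in Xist (376 CPM), Txnip (478 CPM, others 49.5 to 114) and Dtx3 (40.7 CPM). CD34Hi replicate 3 stood apart in Foxo3 (1.98 CPM) and Pik3ip1 (7.22 CPM).

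In pair 4, Agk stood at 24.4 CPM in CD34Hi replicate 4 (others 4.68 to 4.89) and at 44.2 CPM in CD34Lo replicate 4 (others 14.1 to 19.1). CD34Lo replicate 4 was low in Tuba1a (111 CPM, others 240.1 to 253) and Maml2 (5.70 CPM). Among CD34Hi libraries, only replicate 4 held the matrix gene Fmod (3.38 CPM) and Actc1 (0.0993 CPM, 1 count).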

How the results depend on the processing

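The geriatric count of 0 genes was the same without the replicate block (0, with 244 at an unadjusted p under 0.05), with RLE scaling, with limma-voom, with all 16 libraries and the block, in pairs 1 and 2 alone and without any 1 of the 4 pairs (0 in each). It was 1 with all 16 libraries and no block, 97 with DESeq2, 28 with no filter and 1 (Rnf180) in pairs 3 and 4 alone; the causes were not tested. The interaction count of 0 was the same without the block and in each omission (0), and was 36 with DESeq2 and 2 with no filter. The young count of 51 was 36 without the block (28 shared), 219 with DESeq2, 122 with no filter and 19 to 54 without 1 pair. The young numbers gave deviation correlations of 0.029 to 0.14, so young libraries share only a number.

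Of 79 named genes with a fit, 64 kept their direction under all alternatives run, and the 16 described by their p were among them. The 15 others turned under at least 1 alternative. Without the block, Itga7 was 0.092, Vcam1 -0.059, Foxo4 -0.385, Ddx3y -0.444, Iigp1 0.109 and Kdm5d -0.020, and with all 16 libraries and no block they were 0.072, -0.077, -0.388, -0.463, 0.096 and -0.050. With all 16 and the block Spry1 was -0.004. With limma-voom Myod1 was -0.034, Foxo4 -0.546 and Ddx3y -0.221. In pairs 3 and 4, Itga7 was 0.138, Pkia -0.030, Spry1 -0.057, Calcr 0.569 and Foxo4 -1.02, and in pairs 1 and 2 Ddx3y was -0.897, Eif2s3y -0.164 and Kdm5d -1.165. Over the omissions of 1 pair each, Itga7 ran from -0.399 to 0.101, Vcam1 from -0.090 to 0.189, Pax7 from -0.014 to 0.831, Myod1 from -0.121 to 0.332, Spry1 from -0.068 to 0.154 and Foxo4 from -1.253 to 1.482. Xist ran from -1.632 to 1.159, Ddx3y from -0.160 to 1.767, B2m from -0.443 to 0.031, Iigp1 from -1.108 to 0.217 and Ly6c1 from -4.941 to 0.002. The causes were not tested.

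The number and spread of 4 pairs limit what the test can call, and genes under the filter, Myog among them, were not tested. Whether Xist and Y-linked RNA in 1 library reflect pooled animals was not tested.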
